A study of Mus musculus with 6 samples.

Results

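The Notch receptors, ligands and modifiers described here are 10 genes that were listed by symbol. They are the receptors *Notch1*, *Notch2* and *Notch3*, the ligands *Dll1*, *Dll3*, *Jag1* and *Jag2*, and the modifiers *Lfng*, *Numb* and *Numbl*. Each symbol matched a single row among the 32493 genes of the count table, and all 10 passed the filter on low counts, with 65 to 12493 reads in a library. RNA-seq had been performed on neural stem cells (NSCs) that were dissected from the lateral ventricles of mouse embryos at E14.5 and passaged for 3 generations in medium with EGF and bFGF. The cko NSCs were from C57BL/6J embryos homozygous for a floxed miR-151 allele (fl/fl) that also carried Emx1-IRES-Cre, a driver active in the dorsal telencephalon, and miR-151 lies in an intron of *Ptk2*. The ctrl NSCs were fl/fl without Cre, and their labels read wt. The deletion itself was not analysed here. The comparison asks how the RNA of the Notch machinery differs between NSCs with and without the miRNA.

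Notch signaling passes between touching cells. A DELTA or JAGGED ligand on a cell binds a NOTCH receptor on its neighbor, proteases release the receptor's intracellular domain (NICD), and NICD joins RBPJ in the nucleus to switch on genes such as those of the HES family. In the embryonic cortex the pathway keeps NSCs undifferentiated, while cells that begin to form neurons express delta ligands under the control of proneural factors. Fringe enzymes such as LFNG add sugars to the receptors and change which ligands they answer to, and NUMB and its paralog NUMBL restrain the receptors inside the cell.

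The comparison rests on 2 ctrl and 3 cko libraries, with 17883796 to 23335736 counts each. A sixth column, that of ctrl replicate 2, was the average of ctrl 1 and ctrl 3 after rounding up in 32493 of 32493 genes and was not counted as a sample. The study describes the cko and ctrl mice as littermates but does not tie a library to an embryo, litter or culture, so p-values measure the spread between these libraries only, which may be technical. The ctrl libraries stood further apart than the cko libraries, with 734 of 14673 genes beyond 2-fold between ctrl 1 and ctrl 3 and 148 to 249 between cko libraries. Levels are given in CPM, library-scaled counts with edgeR's TMM factors. A floor set at 3 counts, which regards counting error only, corresponds to 0.129 to 0.168 CPM, and lower counts also occur.

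The genotypes also differed in sex-linked RNA. *Xist*, which is expressed from the inactive X chromosome of females, was at 2890 and 2560 CPM in ctrl 1 and ctrl 3 and at 787, 849 and 894 CPM in the cko libraries (log2 fold change -1.69, edgeR adjusted p = 0.000367). The 4 Y-linked genes examined, *Kdm5d*, *Eif2s3y*, *Uty* and *Ddx3y*, were detected in every library and all rose in cko NSCs, by 0.92 to 1.40 on the log2 scale. These genes did not overlap between genotypes, so a difference in the sex make-up of the cultures and the genotype cannot be told apart in any result below.

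Markers of the cells in the cultures were read alongside. The 10 NSC markers summed to between 7440 and 8520 CPM in ctrl and between 8680 and 9450 CPM in cko NSCs, with 2 higher and 1 lower at an adjusted p under 0.05 in edgeR. Of 10 astrocyte markers, 1 of which is also an NSC marker, 6 were lower and none was higher, and their sum was 5010 to 6310 CPM in ctrl and 2270 to 3910 CPM in cko NSCs. Of 10 oligodendrocyte-lineage markers 5 were lower and 2 higher (sums of 3220 to 3840 and 3510 to 3760 CPM), and of 8 tested neuronal markers 1 was lower and 2 higher (1220 to 1350 and 1340 to 1370 CPM). The 8 microglial markers summed to 0.23 to 1.23 CPM over the 5 libraries, with *Cx3cr1*, *Tmem119* and *Itgam* at 0 counts. The 7 endothelial markers summed to 4.89 to 7.22 CPM, most of it from *Kdr* (3.71 to 6.43 CPM), with *Cdh5* at 0 counts. The 8 mural markers summed to 3.10 to 3.41 CPM in ctrl and 1.70 to 2.27 CPM in cko NSCs, and none of the 3 that could be tested was called. In bulk RNA, fewer cells of a type and less RNA per cell cannot be told apart, and the part of these shifts in the differences below was not tested.

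Among the receptors, the delta ligands and the jagged ligands, a gene rose in cko NSCs while a sister gene fell. *Notch1*, *Dll1* and *Jag1* rose, and *Notch3*, *Dll3* and *Jag2* fell, each at a Benjamini-Hochberg adjusted p under 0.05 over 16710 tested genes in edgeR's quasi-likelihood test. *Notch2* and the 3 modifiers were not called. Among all tested genes 16.4% were called in either direction, 7.86% higher and 8.57% lower. The absolute log2 fold changes of the 10 genes had a median of 0.491, against 0.256 over all tested genes, and their signed median was -0.06, against -0.00264 over all tested genes. The genotypes did not overlap in 9 of the 10 genes, a separation that 49.7% of all tested genes also showed. At the stricter threshold used in the study, a log2 fold change beyond 0.9 with an unadjusted p under 0.01, only *Jag2* was called, while 2.39% of all tested genes were called higher and 4.17% lower.

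**Figure D1:**
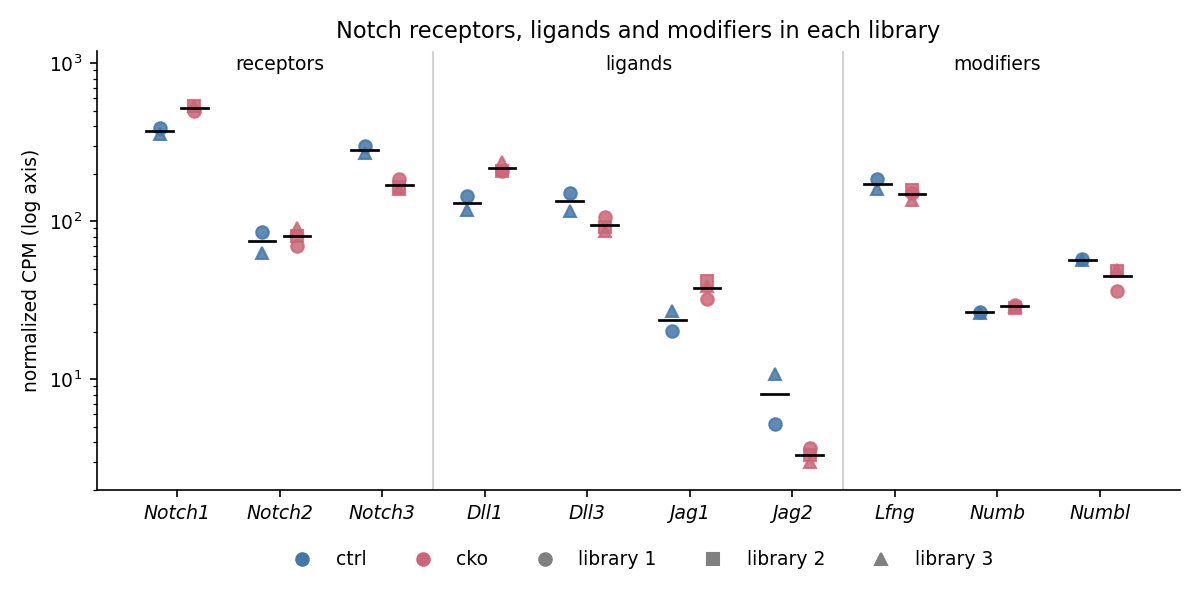
Normalized CPM (log axis) of the 10 genes in each library, with ctrl in blue, cko in red, a marker shape for each library number and a black line at the mean of each genotype. *Notch1*, *Dll1* and *Jag1* lie higher in the 3 cko libraries than in either ctrl library, *Notch3*, *Dll3* and *Jag2* lie lower, and *Notch2* overlaps.

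The receptor *Notch1* (ENSMUSG00000026923, chromosome 2, 26457903 to 26516663, minus strand of GRCm38), the main NOTCH receptor of cortical progenitors, was measured at 387 and 359 CPM in ctrl 1 and ctrl 3. In cko 1, cko 2 and cko 3 it reached 498, 536 and 537 CPM. All cko libraries were above both ctrl libraries, and the libraries of a genotype lay within 1.08-fold of each other. *Notch1* had a log2 fold change of 0.49 (standard error 0.08, 95% interval 0.30 to 0.68, adjusted p = 0.00867 in edgeR). Its direction held with each library left out, but the adjusted p was 0.0685 without cko 2 and 0.0653 without cko 3 (log2 fold changes of 0.46 in both cases).

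*Notch3* (ENSMUSG00000038146, chromosome 17, 32120820 to 32166852, minus strand), a receptor best known from the mural cells of blood vessels and also expressed in neural progenitors, went the other way. It was measured at 298 and 271 CPM in ctrl 1 and ctrl 3, and at 185, 164 and 160 CPM in cko 1, cko 2 and cko 3. Every cko library was below both ctrl libraries. The log2 fold change was -0.75 (standard error 0.09, 95% interval -0.96 to -0.54, adjusted p = 0.00312 in edgeR), and the call was kept with each library left out, between -0.82 and -0.68. The summed mural markers, at most 3.41 CPM, were also lower in every cko library, and their part in the difference was not tested.

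*Notch2* (ENSMUSG00000027878, chromosome 3, 98013527 to 98150361, plus strand), the third receptor of progenitors and glia, did not separate the genotypes. It was measured at 86.0 and 63.2 CPM in ctrl 1 and ctrl 3 and at 70.2, 80.3 and 90.5 CPM in the cko libraries, so that the cko values fell within or just beyond the ctrl range. Its log2 fold change of 0.11 had a 95% interval from -0.25 to 0.47 (adjusted p = 0.675 in edgeR), and it turned to -0.093 without ctrl 3. *Notch4*, the remaining receptor, stood at 1.49 to 2.13 CPM and differed by 0.06 on the log2 scale (edgeR adjusted p = 0.913).

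**Figure D2:**
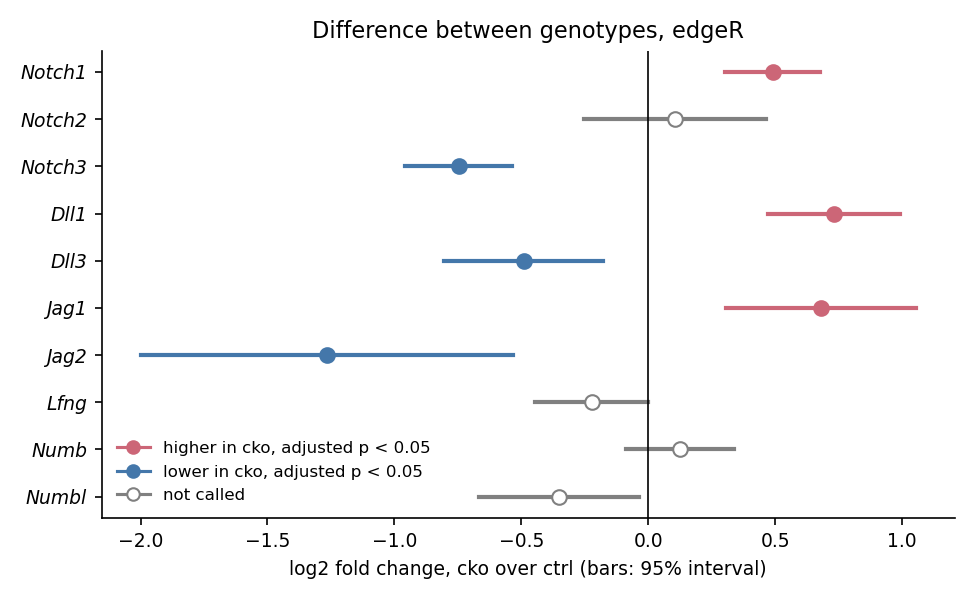
Log2 fold change of cko over ctrl NSCs for each gene in edgeR, with bars for the 95% interval, red for genes called higher, blue for genes called lower and open gray circles for genes not called. The intervals of *Notch1* and *Notch3*, of *Dll1* and *Dll3*, and of *Jag1* and *Jag2* lie on opposite sides of 0.

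*Dll1* (ENSMUSG00000014773, chromosome 17, 15367354 to 15376872, minus strand) encodes the delta ligand that differentiating progenitors show to their neighbors. It was measured at 144 and 117 CPM in ctrl 1 and ctrl 3 and at 208, 208 and 236 CPM in cko 1, cko 2 and cko 3. The cko libraries were all above the ctrl libraries. The log2 fold change was 0.73 (standard error 0.11, 95% interval 0.47 to 0.99, adjusted p = 0.00673 in edgeR), and *Dll1* kept its call with each library left out, between 0.60 and 0.88.

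*Dll3* (ENSMUSG00000003436, chromosome 7, 28293553 to 28302238, minus strand), a divergent delta protein that dampens Notch signaling within the cell that makes it, was at 151 and 116 CPM in ctrl 1 and ctrl 3. In the cko libraries it was at 106, 91.6 and 87.0 CPM. The genotypes did not overlap, but the gap between ctrl 3 and cko 1 was smaller than that between the ctrl libraries. For *Dll3* this gave a log2 fold change of -0.49 (standard error 0.13, 95% interval -0.80 to -0.18, adjusted p = 0.0456 in edgeR), close to the threshold. The adjusted p rose to 0.0988 without ctrl 1 (log2 fold change -0.30), 0.0528 without cko 1 (-0.59), and 0.156 without cko 2 (-0.47) and without cko 3 (-0.44), while the direction stayed.

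*Jag1* (ENSMUSG00000027276, chromosome 2, 137081456 to 137116644, minus strand), a jagged ligand of progenitor and glial niches, was a less abundant transcript. It was measured at 20.2 and 26.9 CPM in ctrl 1 and ctrl 3 and at 32.4, 41.7 and 38.9 CPM in the cko libraries. The cko libraries were all above the ctrl libraries. The difference on the log2 scale was 0.68 (standard error 0.16, 95% interval 0.31 to 1.055, adjusted p = 0.029 in edgeR). The call was lost without ctrl 1 (0.48, adjusted p = 0.0558), without cko 2 (0.59, adjusted p = 0.125) and without cko 3 (0.65, adjusted p = 0.118).

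*Jag2* (ENSMUSG00000002799, chromosome 12, 112907819 to 112929776, minus strand), the other jagged ligand, had the fewest reads, 65 to 203 per library. It was measured at 5.24 and 10.8 CPM in ctrl 1 and ctrl 3 and at 3.69, 3.30 and 2.99 CPM in the cko libraries. All cko libraries were below both ctrl libraries, but the ctrl libraries differed 2.07-fold from each other. The log2 fold change of -1.27 was the largest of the 10 in size, with the widest interval (standard error 0.31, 95% interval -2.0 to -0.53, adjusted p = 0.0341 in edgeR). Against ctrl 1 alone it was -0.65 (adjusted p = 0.0973) and against ctrl 3 alone -1.72, so the size of the fall depends on which ctrl library is used. Without cko 1, cko 2 or cko 3 the adjusted p was 0.0833, 0.125 and 0.132.

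Delta genes are known targets of proneural factors, which bind E-boxes, and Notch targets are switched on through RBPJ, so the letters of an E-box (CAGCTG, its own reverse complement) and of the RBPJ core (TGGGAA, on either strand) were searched in the members' promoters. RefSeq promoters of GRCm38.p6, each a stretch around an annotated start, were at hand for all 10 genes, 13 promoters in all. The E-box letters were in a promoter of 4 genes, *Dll1*, *Dll3*, *Jag1* and *Lfng*, and in 16.3% of all 32851 promoters. Counts of genes and shares of promoters are unlike units, since a gene can have several promoters, and enrichment was not tested. The ligand windows are shown because these ligands moved in different directions, *Dll1* and *Jag1* up and *Dll3* down, with the E-box letters in capitals. They lie at chr17:15377047-15377076, chr7:28301786-28301815 and chr2:137116585-137116614, all on the minus strand, and the letters begin 132, 7 and 82 bases before the RefSeq start, for *Dll1* that of promoter 2. The *Dll3* and *Jag1* windows lie inside the gene positions given above, which come from GENCODE.
Dll1: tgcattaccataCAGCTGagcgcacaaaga
Dll3: aaatataagactccggcatccagCAGCTGc
Jag1: ccgcgtttcatgCAGCTGatctgaaaggga
The RBPJ letters were in the promoter of *Lfng* alone and in 25.6% of all promoters. The *Lfng* stretch is shown because it holds both kinds of letters, the E-box 146 and the RBPJ core 135 and 108 bases before the start, at chr5:140607187-140607246 on the plus strand (capitals mark these 3 matches, and a second E-box match that begins after the start is not shown).
Lfng: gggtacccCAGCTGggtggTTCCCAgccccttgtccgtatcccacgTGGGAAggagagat

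*Lfng* (ENSMUSG00000029570, chromosome 5, 140607320 to 140615545, plus strand), which encodes the fringe glycosyltransferase, was measured at 186 and 161 CPM in ctrl 1 and ctrl 3 and at 151, 157 and 137 CPM in the cko libraries. The genotypes did not overlap, but the distance from ctrl 3 to cko 2 was small beside the distance between the ctrl libraries. The log2 fold change of -0.22 did not pass the correction (95% interval -0.45 to -0.00095, unadjusted p = 0.0493 and adjusted p = 0.152 in edgeR). Without ctrl 3 it was -0.32 (adjusted p = 0.0372 in edgeR), and without ctrl 1 it was -0.12 (adjusted p = 0.385).

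*Numb* (ENSMUSG00000021224, chromosome 12, 83794034 to 83921934, minus strand), the membrane-associated inhibitor of Notch, varied little between libraries of a genotype. It was measured at 26.8 and 26.1 CPM in ctrl 1 and ctrl 3 and at 29.4, 28.3 and 28.9 CPM in the cko libraries. Although the genotypes did not overlap, the log2 fold change was 0.13 with a 95% interval from -0.09 to 0.34 (adjusted p = 0.378 in edgeR). *Numbl* (ENSMUSG00000063160, chromosome 7, 27258433 to 27282144, plus strand), its paralog, was measured at 57.4 and 57.0 CPM in ctrl and at 36.4, 48.5 and 49.5 CPM in cko NSCs. The low value belonged to cko 1, and the other two cko libraries were closer to ctrl. Its log2 fold change of -0.35 did not pass the correction (95% interval -0.67 to -0.04, unadjusted p = 0.0333 and adjusted p = 0.119 in edgeR), and it was -0.23 (adjusted p = 0.128) without cko 1.

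**Figure D3:**
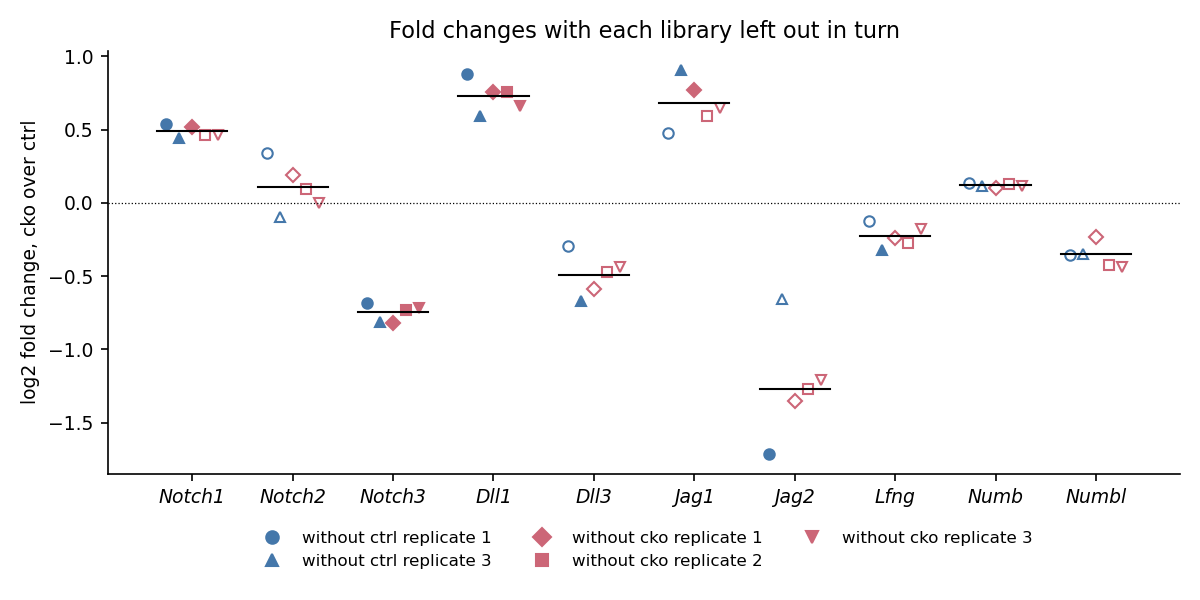
Log2 fold change of each gene (vertical axis) with each library left out in turn, with blue for a ctrl and red for a cko library left out, filled markers for an adjusted p under 0.05 and a black line at the value from all 5 libraries. *Notch3* and *Dll1* stay filled throughout, and *Notch2* crosses 0 without ctrl replicate 3.

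Levels of different genes were compared only per length, as CPM per kilobase of annotated exon. In ctrl NSCs *Lfng* was the most abundant with 69.1 ± 7.08 (SD, n = 2) CPM per kb, followed by *Dll3* (46.8 ± 8.82), *Notch3* (35.2 ± 2.41), *Dll1* (31.0 ± 4.5) and *Notch1* (26.2 ± 1.39). *Notch2* (6.92 ± 1.5), *Numb* (6.76 ± 0.114) and *Numbl* (6.59 ± 0.0257) formed a lower tier, above *Jag1* (4.04 ± 0.821) and *Jag2* (1.15 ± 0.567). In the ctrl order, *Dll1* differed by less than its spread from *Notch3*, and *Notch2*, *Numb* and *Numbl* could not be ordered. In cko NSCs *Lfng* again ranked highest at 59.2 ± 4.05 (SD, n = 3) CPM per kb, but *Dll1* (51.5 ± 3.82) and *Notch1* (36.8 ± 1.56) now followed, ahead of *Dll3* (33.3 ± 3.55) and *Notch3* (21 ± 1.62). In the cko libraries *Lfng* (54.8 to 62.7) and *Dll1* (49.3 to 55.9) overlapped, with *Dll1* above *Lfng* in cko 3, and so did *Notch1* and *Dll3*. The order also depends on the length used, since per kb of the longest transcript *Notch1* stood at 39.3 CPM in ctrl NSCs, above *Dll1* (36.5) and *Notch3* (35.5).

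The make-up of the receptor RNA separated the genotypes, and its sum did not. No test was run on the shares, which rest on the counts tested above. The 3 receptors summed to 72.0 and 64.5 CPM per kb in ctrl 1 and ctrl 3 and to 64.3, 65.3 and 66.0 CPM per kb in the cko libraries, with overlapping ranges. *Notch3* made up 51.2% and 51.9% of that sum in ctrl and 35.5%, 31.0% and 30.1% in cko NSCs. *Notch1* made up 37.7% and 39.1% in ctrl and 54.4%, 57.6% and 57.2% in cko NSCs. The leading receptor in ctrl depends on the length used, since with the longest transcript of each gene *Notch1* made up 47.3% and 48.7% and *Notch3* 43.2% and 43.5% in ctrl. The ratio of *Notch1* to *Notch3* per length, whose change between genotypes does not depend on length, was 0.737 and 0.753 in ctrl and 1.53, 1.86 and 1.90 in cko NSCs.

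Among the ligands the delta genes made up most of the RNA in every library. *Dll3* led in ctrl NSCs with 58.0% and 54.4% of the summed ligand RNA per kb and held less than *Dll1* in cko NSCs, with 40.3%, 36.1% and 32.6%. *Dll1* made up 37.4% and 37.3% in ctrl and 53.2%, 55.4% and 59.8% in cko NSCs, and the same gene led in each genotype with the longest-transcript lengths. Per kb the sums overlapped, at 91.5 and 74.6 CPM per kb in ctrl and 92.8, 89.1 and 93.6 in cko NSCs. Without division by length they did not overlap, at 271 to 321 CPM in ctrl and 345 to 365 CPM in cko NSCs. *Jag1* made up 3.79% to 8.03% and *Jag2* 0.458% to 2.08% over the 5 libraries. The ratio of *Jag1* to *Jag2* was 4.60 and 2.97 in ctrl and 10.5, 15.1 and 15.6 in cko NSCs, and the ratio of *Dll1* to *Jag1*, both of which rose, overlapped between genotypes (6.02 and 9.87 against 6.89 to 8.87).

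**Figure D4:**
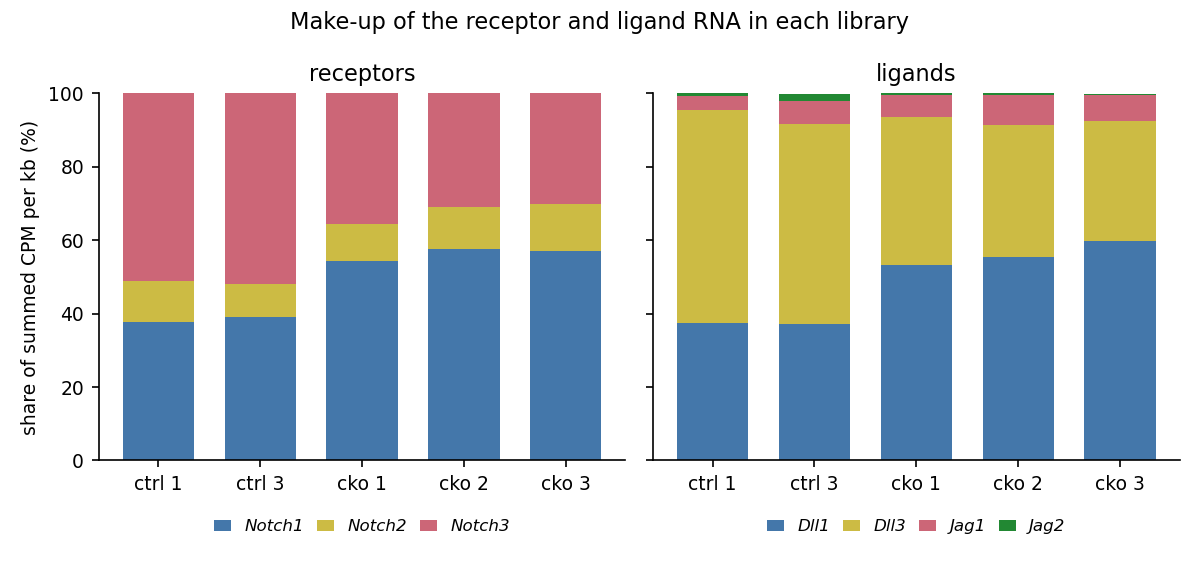
Share of the summed CPM per kb of exon (percent) that each receptor (left) and each ligand (right) holds in each library, as stacked bars. The *Notch1* and *Dll1* parts stand near 38% and 37% in the ctrl bars and above 53% in the cko bars.

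The rest of the pathway was followed in 72 further genes in 7 lists, of which 70 could be tested. By the same edgeR criterion 11 of the 70 rose in cko NSCs and 4 fell, beside 7.86% and 8.57% of all tested genes, and their median log2 fold change was -0.01. None of the 6 glycosyltransferases, the companions of *Lfng* that attach and extend sugars on NOTCH, was called, with log2 fold changes from -0.54 to 0.17. Of 7 further receptors and ligands only *Cntn1*, a neural adhesion protein that can bind NOTCH, passed in edgeR, rising by 0.83 on the log2 scale with an adjusted p of 0.00229. The endothelial ligand *Dll4* stood at 0.600 to 1.12 CPM.

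Among 18 genes for ubiquitin ligases and endocytosis, which ligands and receptors need for their traffic, 2 were higher and 1 lower. *Neurl1b*, a ligase that acts on ligands, rose from 23.4 ± 6.22 (SD, n = 2) to 38.4 ± 4.86 (SD, n = 3) CPM (log2 fold change 0.72, adjusted p = 0.0357 in edgeR). *Lnx1*, a ligase known to act on NUMB, rose by 0.64 on the log2 scale (edgeR adjusted p = 0.011). *Mib2*, a mind bomb ligase for ligands, had a value of -0.37 (edgeR adjusted p = 0.025). Among 10 genes for the proteases that cut NOTCH, *Aph1b* (0.35, adjusted p = 0.0283) and *Adam10* (0.28, adjusted p = 0.0495) were higher and *Psen2* (-0.76, adjusted p = 0.0462) was lower in edgeR. *Aph1a*, the γ-secretase subunit that the study names as the target of the miRNA, was at 72.1 and 84.5 CPM in ctrl and at 74.9, 77.9 and 69.4 CPM in cko NSCs, with overlapping genotypes and a log2 fold change of -0.08 (95% interval -0.31 to 0.15, adjusted p = 0.613 in edgeR). The study based this target on prediction, a luciferase reporter assay and higher APH1A protein in cko NSCs and adult cko dorsal cortex. It also reported higher NICD protein in cko NSCs. With APH1A overexpressed in embryos, it reported more retained cells and a stronger Notch reporter signal in the ventricular zone. RNA levels do not measure protein, which was not examined here.

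In the nucleus, 4 of 17 genes of the RBPJ complex and its corepressors were higher and 1 was lower. The coactivator *Maml2* rose by 0.49 on the log2 scale (adjusted p = 0.0109), *Hdac1* rose by 0.38 (adjusted p = 0.0218), and the acetyltransferase gene *Kat2a* had a value of -0.43 (adjusted p = 0.011) in edgeR. The other two higher genes, named after their values were seen, were *Hdac2* (0.37) and *Kdm1a* (0.26). *Rbpj* itself was at 87.8 ± 5.55 (SD, n = 2) and 99.9 ± 5.05 (SD, n = 3) CPM, a difference of 0.19 on the log2 scale (edgeR adjusted p = 0.165).

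The transcriptional targets did not move together, with 2 of 8 higher and 1 lower. *Hes5*, a main effector in cortical NSCs, had a log2 fold change of 0.93 and *Heyl* of 1.51, at 0.917 to 3.86 CPM, while *Hes1* had one of -1.04 (adjusted p = 0.00107, 0.0287 and 0.00588 in edgeR). *Nrarp*, an early feedback target, was at 20.7 and 35.5 CPM in ctrl and at 36.4, 38.0 and 31.7 CPM in cko NSCs (adjusted p = 0.316 in edgeR). *Neurog2*, a proneural gene known to drive delta ligands, was 0.39 higher on the log2 scale and did not pass the test (edgeR adjusted p = 0.203), and *Atoh1* had 0 counts in each library.

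**Figure D5:**
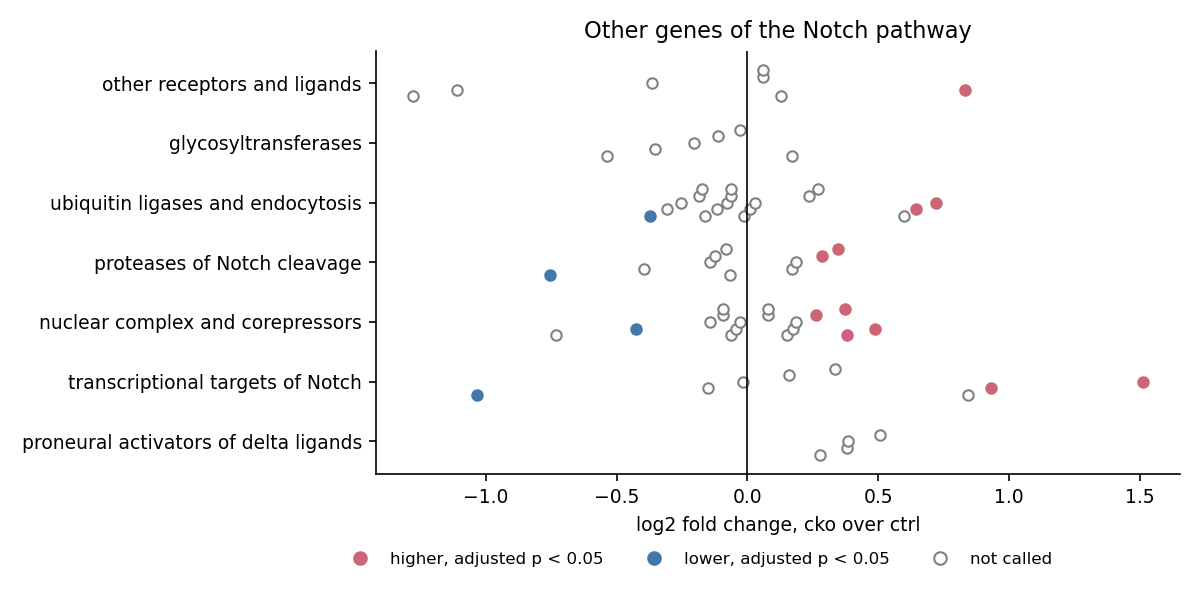
Log2 fold change of cko over ctrl (horizontal axis) for the 70 tested genes of 7 other Notch pathway lists, with a point for each gene, red for genes called higher, blue for genes called lower and open gray circles for genes not called in edgeR. Called genes lie on both sides of 0 in the lists for ubiquitin ligases, proteases, nuclear factors and targets.

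Several of the 10 genes overlap other annotated genes, and the sources used here do not say whether strand was used in counting. On the opposite strand *0610009E02Rik* covers 7.50% of the exon bases of *Notch1*, *Gm17276* covers 6.03% of those of *Notch3* and *Gm46367* covers 4.24% of those of *Numb*. These overlapping genes held at most 26, 16 and 20 counts in a library, against at least 6722 for *Notch1*, 3300 for *Notch3* and 490 for *Numb*. On the same strand *Gm42820* covers 5.02% of the exon bases of *Notch2* and *Gm44641* covers 0.98% of those of *Numbl*. They held at most 4 and 2 counts in a library, against at least 1184 for *Notch2* and 651 for *Numbl*. *A930024N18Rik*, on the strand opposite *Dll1*, covers 867 of its 4219 exon bases, a larger share than those above. It has no row in the count table, so its part in the *Dll1* counts could not be examined.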

How the data were processed

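Bulk RNA-seq of cultured E14.5 NSCs was analysed from the count table. Per the study's methods, the authors used FastQC and NGSQC on the reads and HISAT2 for alignment, with mm10 as genome. The deposited values are raw counts, 1 row per Ensembl gene. The submitters' processing notes name GRCm39 instead. The counting tool, annotation and use of strand are not given in the sources used here. Symbols, positions and exon lengths came from GENCODE M21 (GRCm38), which matched 31829 of 32493 gene IDs, and promoters from RefSeq (GRCm38.p6).

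Counts of 2 ctrl and 3 cko libraries were tested in R 4.3.3 with edgeR 4.0.16 (filterByExpr, TMM, quasi-likelihood test, Benjamini-Hochberg over 16710 genes). The use of 5 of the 6 columns, the 10 genes and the lists were chosen with earlier results of these data known. CPM are scaled by TMM, and errors are SD. Named genes are the 10 members, *Aph1a*, and up to 3 called genes with the largest absolute change in each pathway list. *Notch4*, *Dll4*, *Rbpj*, *Nrarp*, *Neurog2*, *Atoh1*, *Hdac2*, *Kdm1a* and the sex-linked genes fall outside this rule and were named after their values were seen. Counting error of the 10 genes was 0.895% to 12.4% of a count. Alternatives were DESeq2 1.42.0, other scalings and filters, the replicate block, all 6 columns and leaving out each library. The scripts were tested on simulated data. The searches for miR-151 sites and the comparison of proteins named in the plan were not made here. Figures were drawn with matplotlib 3.10.9.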

Additional observations from a re-analysis of the deposited data

How the results depend on the processing

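Of 10 genes, 3 were higher and 3 lower in the main comparison, and the same counts came from DESeq2, from either other scaling and from at least 10 counts in every library. With each library left out in turn, 1 to 3 were higher and 1 to 3 lower, the other pathway genes ranged from 2 to 13 higher and 1 to 9 lower, and all tested genes from 317 to 1812 higher and 416 to 2062 lower. An arm left with 1 ctrl library is assumed to vary like the other group. With no filter, 2237 genes and 8 other pathway genes were lower, and *Numbl* was called. With all 6 columns, which count the averaged column as a sample, edgeR gave 2865 higher and 2794 lower genes and 11 lower pathway genes. With the replicate block these were 2675, 2673 and 10, and 5 of the 10 genes were lower (*Lfng* and *Numbl* added). DESeq2 on 6 columns gave 2608, 2539 and 10. At the threshold of the study the counts were 0 and 1 of the 10 genes, 399 and 696 of all genes and 2 and 1 of the pathway genes. With a library left out *Notch2* ranged from -0.093 (without ctrl replicate 3, a reversal) to 0.34 (without ctrl replicate 1) on the log2 scale. The cause of these shifts was not tested.

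The replicate numbers are shared by label only, and deviations of same-numbered libraries correlated at r = 0.143 (number 1) and 0.0507 (number 3) across genes, which are not independent replicates. Libraries of unlike number, ctrl 3 and cko 2, gave r = 0.116. With 2 ctrl libraries, a cko library's values against ctrl 1 and ctrl 3 are equal and opposite by construction. These values therefore cannot show whether the numbers mark pairs. In the replicate block with 5 libraries, 918 genes were higher and 1065 lower, other pathway genes fell to 6 higher and 2 lower, and the same 6 of the 10 genes were called, *Jag2* at an adjusted p of 0.04999 in edgeR. Depth limits *Jag2* most, at 65 to 203 reads.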
